A study of Mus musculus with 4 samples.

Results

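Sord and 6 genes of sugar uptake and phosphorylation were measured in testes of mice deficient in Tas1r3 (KO) and of wild-type (WT) mice. Sord encodes sorbitol dehydrogenase. The others were the glucose transporter genes Slc2a1, Slc2a3 and Slc2a8, the hexokinase genes Hk1 and Hk2, and the ketohexokinase gene Khk. The genes were taken by symbol from a table of 17924 gene symbols, and 11 of its 29342 transcript rows belonged to the 7 genes. Their levels are sums over those rows in CPM, reads scaled to a common total of 1000000 per library. Sord was chosen by its measured values in KO and WT testis, which were known to differ, and the other genes for their place in the same pathways with their values known. The difference between genotypes is therefore given for these 7 genes as a description, with no test.

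The KO group had 2 testis samples from male C57BL/6 mice lacking Tas1r3, the subunit shared by the sweet and umami taste receptors. The WT group had 2 testis samples from male C57BL/6 mice. Mice of both genotypes ate a normal diet for 18 weeks, and neither their age nor the deleted part of Tas1r3 is stated in the labels. Whether samples of 1 genotype are separate animals is not stated, so the spread between them may be technical. The series compares testicular gene expression with and without the subunit.

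Cells take up glucose and fructose through facilitative transporters of the SLC2A (GLUT) family, and hexokinases then trap glucose as glucose 6-phosphate. In the polyol pathway, aldose reductase converts glucose to sorbitol, and sorbitol dehydrogenase oxidizes sorbitol to fructose. Ketohexokinase commits fructose to breakdown by phosphorylating it. Developing germ cells behind the blood-testis barrier depend largely on lactate from Sertoli cells, and mature sperm can use glucose, fructose and sorbitol.

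Depth differed between the genotypes. From the spacing of low values, about 748637 and 597937 reads were assigned in KO samples 1 and 2, against 1719355 and 1807697 reads in WT samples 1 and 2, so mean depth was 2.62 times higher in WT. Tas1r3 stood at 1.34 and 0 CPM in the KO samples, against 13.8 and 20.5 CPM in the WT samples. In KO sample 2 the limit set by finding 0 reads was 5.02 CPM, which 3 reads would give. All libraries held abundant germ cell transcripts, as a check of the label testis: 10 markers of elongating spermatids summed to 28772 and 39567 CPM in KO samples and to 33073 and 33100.3 CPM in WT samples. In such bulk tissue, fewer cells of a type and less RNA per cell cannot be told apart.

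Both KO samples were above both WT samples for Sord and Khk, and both were below for Slc2a1 and, in summed CPM though not per kilobase of transcript, for Slc2a8. Slc2a3, Hk1 and Hk2 overlapped between genotypes. All 7 genes passed the filter on low values. Over all 17744 tested genes, both KO samples were above both WT samples in 15.0%, below in 19.4%, and apart in either direction in 34.4%. The median log2 fold change (KO minus WT, on log2(CPM + 1)) was 0.03 over the 7 genes and -0.05 over all tested genes.

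**Figure D1:**
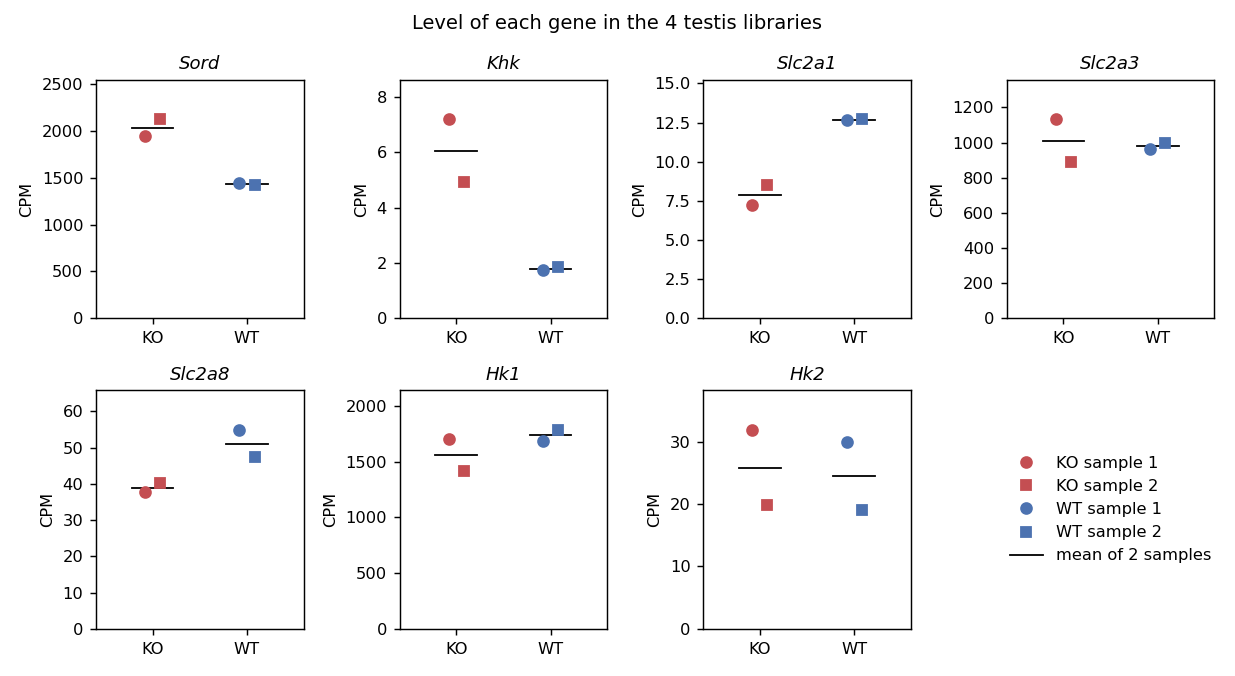
Level of each gene in CPM (vertical axes from 0, each gene on its own scale) in the 2 KO and 2 WT samples, with a line at the mean of each genotype. For Sord the KO samples lie at 1946 and 2125 CPM, above the WT samples at 1444 and 1428 CPM, while Slc2a3, Hk1 and Hk2 overlap.

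Sord was at 1946 and 2125 CPM in KO samples 1 and 2, against 1444 and 1428 CPM in WT samples 1 and 2. The WT samples lay close together, and the KO samples were both higher. Means were 2036 ± 126 CPM in KO and 1436 ± 11.4 CPM in WT (SD, n = 2 each), a log2 fold change of 0.50 with SE 0.12 on log2(CPM + 1). In reads this was about 2728 over the KO group and 5064 over the WT group. Scaled for depth, that was 1.41 times as many in KO (exact 95% interval 1.35 to 1.48 from counting error alone). The interval leaves out the spread between samples and is no test of the difference, by which Sord was chosen. The log2 fold change stayed between 0.44 and 0.57 in all 13 alternative analyses, including those that left out each sample in turn. Of these, the changed filters, the fit without a mean trend and the replicate block could not move the log2 fold change by their design. The alternatives reuse the values by which Sord was chosen and are no separate support for its difference.

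Sord was the 34th of 17924 genes by mean CPM, so its values rest on about 1271 reads or more in every library. Of 80 tested genes at 1000 CPM or more, 3 (3.75%) had both KO samples above both WT samples. These were Sord, the chaperonin gene Tcp1 and the 18S ribosomal RNA gene Rn18s, and Tcp1 and Rn18s are named here after their values were seen. Over all tested genes the share was 15.0%. Sord was chosen by these values, so the share of 3.75% is no separate support for its difference. Rn18s took 1.93% and 1.76% of the KO libraries, against 1.39% and 1.19% of the WT libraries. Markers of spermatocytes, the meiotic germ cells, also stood higher in KO. Their 10 genes summed to 1349.7 and 1129 CPM in KO samples and to 1053 and 1049.6 CPM in WT samples, all 10 had a positive log2 fold change, and 0 passed limma with Benjamini-Hochberg adjustment (2 at an unadjusted p under 0.05, which 4.69% of all tested genes reached). The part of ribosomal RNA or of germ cell makeup in the level of Sord was not tested.

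On the plus strand of chromosome 2 (mm39), Sord spans positions 122065320 to 122095819 and has 1 listed transcript of 2259 bases. The 250 bases before its start are shown because Sord was the abundant gene of the 7 whose genotypes did not overlap. They are RefSeq sequence of the older build GRCm38.p6, chr2:122234589-122234838, plus strand, 5′ to 3′, with matches to GGGCGG or its reverse complement (the GC box) in capitals.
Sord: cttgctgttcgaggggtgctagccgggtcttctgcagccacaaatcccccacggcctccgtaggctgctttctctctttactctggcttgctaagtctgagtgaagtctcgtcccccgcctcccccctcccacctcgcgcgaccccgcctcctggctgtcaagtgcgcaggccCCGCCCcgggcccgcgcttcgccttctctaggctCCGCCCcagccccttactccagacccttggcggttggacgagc
The window held 2 GC boxes, the nearer beginning 43 bases before the start, and had 66.8% G and C with 19 CpG dinucleotides. A GC box was found on either strand in 32.7% of 32851 promoter windows of this length, whose median was 52.4% G and C with 6 CpG. The other motifs searched, on both strands, were not in this window. These were TGACG, the core of the cyclic AMP response element (CRE), present in 17.8% of all windows, and the CRE palindrome that contains it, present in 1.55%. The others were the TATA box TATAAA, present in 12.4%, and the CCAAT box, present in 33.8%.

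Among 3815 other genes that averaged 50 CPM or more, those whose centred log2(CPM + 1) values over the 4 libraries lay nearest to Sord were Rmnd1, Srp54c and Uchl1. Their Euclidean distances were 0.078, 0.092 and 0.13, where the median gene lay at 0.60. The profile of Sord holds the difference by which it was chosen, so genes near it share that difference by construction. Rmnd1, a gene of mitochondrial translation, was at 107 and 118 CPM in KO samples and at 76.8 and 82.0 CPM in WT samples. Uchl1, a ubiquitin hydrolase gene that also stands in the list of spermatogonial markers, was at 60.1 and 70.2 CPM in KO and at 46.9 and 49.8 CPM in WT. Srp54c encodes a subunit of the signal recognition particle, and it has near copies, so its reads are uncertain. Of the other sugar genes, Slc2a3 and Hk1 were among these genes and lay at 0.58 and 0.72. Khk, Slc2a1, Slc2a8 and Hk2 averaged under 50 CPM, where counting noise is larger, and are not set against these distances.

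Khk acts on the fructose that Sord yields, and it was barely detected. It was at 7.19 and 4.93 CPM in KO samples, against 1.74 and 1.84 CPM in WT samples. The KO samples were both higher, but these levels were about 5.4 and 2.9 reads in KO and 3.0 and 3.3 reads in WT. The depth-scaled ratio over the groups was 3.49, with an exact 95% interval from 1.06 to 12.2 for counting error. That interval leaves out the spread between samples and is no test of the difference. On the log2(CPM + 1) scale the difference was 1.32 (SE 0.54), and it ranged from 0.70 with a pseudocount of 5 CPM to 1.68 with a pseudocount of 0.1 CPM. The table listed 1 transcript of Khk, 1320 bases long, on chromosome 5 from 31078903 to 31088593.

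Of the glucose transporters, Slc2a3 (GLUT3), a high-affinity transporter of neurons and germ cells, carried most of the signal. It was at 1131 and 891 CPM in KO samples, against 965 and 999 CPM in WT samples. The KO samples lay on either side of the WT samples, and the means were 1011 ± 170 CPM in KO and 982 ± 24.3 CPM in WT (SD, n = 2 each). Scaled for depth, the KO group had 1.04 times the reads of the WT group (exact 95% interval 0.979 to 1.11 from counting error), and the log2 difference was 0.03 (SE 0.14). It was -0.14 without KO sample 1 and 0.20 without KO sample 2, so its sign rested on which KO sample was used.

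Slc2a1 (GLUT1), the widely expressed transporter of blood-tissue barriers, was at 7.24 and 8.52 CPM in KO samples, against 12.7 CPM in each WT sample. The KO samples were both lower, on about 5 reads each, against about 22 and 23 reads in the WT samples. The depth-scaled ratio was 0.64 with an exact 95% interval from 0.299 to 1.26 for counting error. Slc2a1 lies on the chromosome of Tas1r3, chromosome 4, with the starts of the genes 37.0 Mb apart. Marker sums of Sertoli and endothelial cells, which make GLUT1, overlapped between genotypes. The 14 Sertoli cell markers summed to 1842 and 1502 CPM in KO and to 1711 and 1744 CPM in WT, and 6 listed endothelial markers to 43.0 and 32.7 CPM in KO and to 34.0 and 45.9 CPM in WT, with Pecam1 at 0 in at least 1 library. Red blood cell markers (6 listed of 7) summed to 35.8 and 59.2 CPM in KO and to 53.0 and 188 CPM in WT, with Slc4a1 at 0 in at least 1 library, and their part in the level of Slc2a1 was not tested.

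Slc2a8 (GLUT8), an intracellular transporter known for its high level in testis, was at 37.7 and 40.1 CPM in KO samples, against 54.8 and 47.4 CPM in WT samples. The KO samples were both lower in summed CPM. Divided by transcript length the genotypes overlapped, at 22.4 and 23.9 CPM per kilobase in KO samples, against 28.3 and 23.0 in WT samples. In KO more of the CPM was assigned to the shortest transcript, a division that rests on few reads. In summed CPM, means were 38.9 ± 1.73 CPM in KO and 51.1 ± 5.24 CPM in WT (SD, n = 2 each), with a log2 difference of -0.38 (SE 0.20). The depth-scaled ratio of 0.757 had an exact 95% interval from 0.545 to 1.04.

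The split of Slc2a8 between its RefSeq transcripts differed more than its sum. The 2 coding transcripts together stood at 9.89 and 12.2 CPM in KO samples, against 50.9 and 42.5 CPM in WT samples. The 2 non-coding transcripts together stood at 27.8 and 28.0 CPM in KO samples, against 3.92 and 4.92 CPM in WT samples. Non-coding transcripts thus held 73.8% and 69.7% of the gene in KO (exact 95% intervals 55.1% to 89.3% and 48.9% to 87.4%), against 7.15% and 10.4% in WT (3.05% to 14.7% and 4.90% to 18.9%). These intervals use about 28 and 24 reads in KO and 94 and 86 reads in WT. They cover counting error only and not the division of reads between transcripts.

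Most of that shift came from the non-coding transcript NR_151461, at 21.2 and 27.9 CPM in KO samples, against 1.02 and 1.08 CPM in WT samples. The coding transcript NM_019488 was at 0.50 and 12.2 CPM in KO and at 20.9 and 38.8 CPM in WT, and the coding transcript NM_001356409 was at 9.39 and 0.0091 CPM in KO and at 30.05 and 3.73 CPM in WT. The coding transcripts thus traded places between samples of 1 genotype, so the level of either alone is not firm. All 4 Slc2a8 transcripts are listed with the same ends, positions 32862993 and 32872096 of chromosome 2 (mm39, minus strand), and differ in length from 1539 to 2118 bases.

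Shifts between transcripts were common in the table. Of 3543 genes with several transcripts that averaged 20 CPM or more and had reads in every library, 13.5% had a transcript whose share differed by at least 30 percentage points between genotypes without overlap. Of 539 such genes with both coding and non-coding transcripts, 21 (3.90%) had a non-coding share that was higher in KO by that much without overlap, Slc2a8 included. The 30 points were chosen after the values were seen. The non-coding share of these genes had a median of 15.7% and 14.2% in KO libraries and of 14.3% and 15.4% in WT libraries, so the medians overlapped between genotypes. The means were 25.7% and 27.3% in KO libraries and 24.6% in each WT library.

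**Figure D2:**
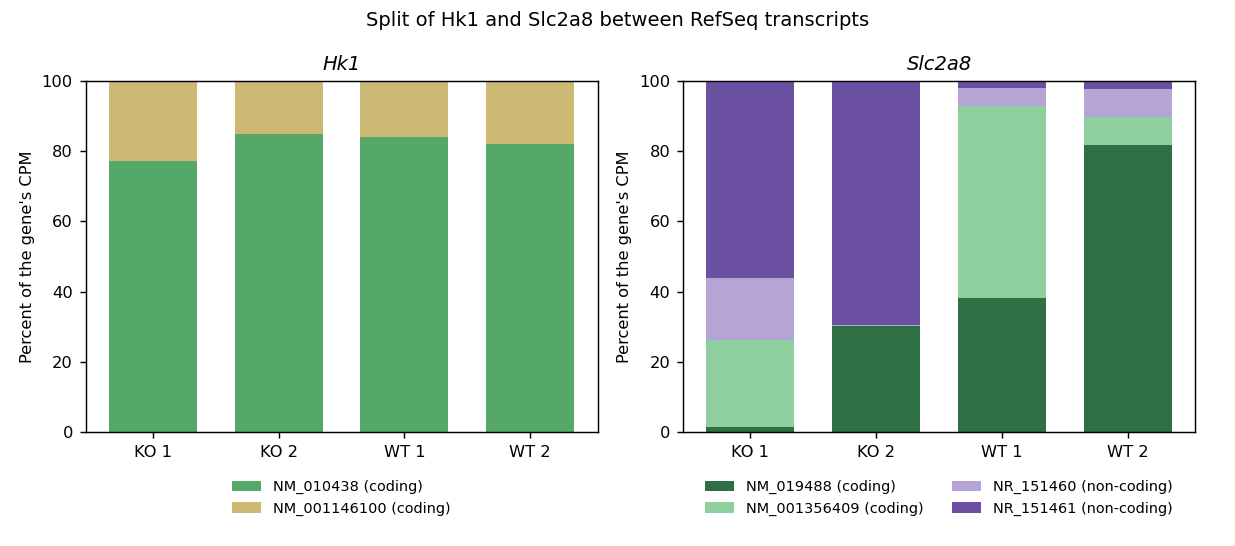
Percent of the CPM of Hk1 (left) and Slc2a8 (right) on each RefSeq transcript, stacked to 100%, in KO samples 1 and 2 and WT samples 1 and 2. Hk1 keeps 77.2% to 84.9% on 1 transcript in all libraries, whereas the non-coding transcripts of Slc2a8 (purple) hold 73.8% and 69.7% in KO and 7.15% and 10.4% in WT.

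Hexokinase 1 supplied nearly all hexokinase transcripts. Hk1 was at 1702 and 1413 CPM in KO samples, against 1686 and 1781 CPM in WT samples. KO sample 1 lay between the WT samples and KO sample 2 below both. Means were 1557 ± 204 CPM in KO and 1734 ± 67.1 CPM in WT (SD, n = 2 each), a log2 difference of -0.16 (SE 0.13). That difference was -0.29 without KO sample 1 and -0.03 without KO sample 2. The depth-scaled ratio was 0.907 with an exact 95% interval from 0.863 to 0.953, which leaves out 1 although the genotypes overlapped, so such intervals understate the spread between samples. Hk2, the insulin-responsive hexokinase of muscle and fat, was at 31.8 and 19.9 CPM in KO, against 29.9 and 19.0 CPM in WT. Its samples overlapped, with a log2 difference of 0.08 (SE 0.34) that was -0.25 without KO sample 1 and 0.40 without KO sample 2.

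Mouse spermatogenic cells are known to make Hk1 transcripts with their own first exons. The table listed 2 Hk1 transcripts that share their 3′ end and start 39487 bases apart on chromosome 10 of mm39. NM_010438, with the upstream start at 62215688, was at 1313 and 1199 CPM in KO samples, against 1416 and 1463 CPM in WT samples. NM_001146100, with the downstream start at 62176201, was at 389 and 214 CPM in KO samples, against 270 and 318 CPM in WT samples. The upstream transcript held 77.2% and 84.9% of Hk1 in KO (exact 95% intervals 74.8% to 79.4% and 82.3% to 87.2%) and 84.0% and 82.2% in WT (82.6% to 85.3% and 80.8% to 83.5%). The KO samples differed from each other by more than counting error and lay on either side of WT.

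RefSeq sequence of GRCm38.p6 has 2 Hk1 start sites at the same distance of 39487 bases, and the 250 bases before each are shown because the table measures a transcript from each. The upstream window is chr10:62379909-62380158 and the downstream window chr10:62340422-62340671, both on the minus strand, 5′ to 3′, with CpG dinucleotides in capitals.
Hk1 upstream: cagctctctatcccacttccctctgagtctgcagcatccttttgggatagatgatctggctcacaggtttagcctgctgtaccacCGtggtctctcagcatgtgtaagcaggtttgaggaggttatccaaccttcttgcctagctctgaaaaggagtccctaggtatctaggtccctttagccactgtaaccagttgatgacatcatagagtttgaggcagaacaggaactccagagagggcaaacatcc
Hk1 downstream: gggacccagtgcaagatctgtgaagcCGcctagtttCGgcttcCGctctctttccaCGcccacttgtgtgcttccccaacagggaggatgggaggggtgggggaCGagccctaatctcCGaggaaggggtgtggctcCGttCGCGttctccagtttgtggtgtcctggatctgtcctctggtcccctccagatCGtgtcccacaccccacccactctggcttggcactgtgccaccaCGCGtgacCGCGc
The upstream window, before the more abundant transcript, had 1 CpG and 49.6% G and C. The downstream window had 14 CpG and 62.8% G and C. Neither window held a GC box or any of the other motifs on either strand. Windows were found for 6 of the 7 genes, 7 windows in all. A CCAAT box was found 4 times in that of Slc2a8 and 2 times in that of Hk2. A GC box was found in those of Slc2a1, Khk and Hk2, and TGACG in those of Khk and Hk2.

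Levels of different genes were compared per kilobase of transcript, over all 4 libraries. Sord was highest at 768 ± 157 CPM per kilobase (SD, n = 4), followed by Hk1 at 400.4 ± 39.0 and Slc2a3 at 252 ± 25.3. Each of these stood above the next in 4 of 4 libraries without overlap. Slc2a8 followed at 24.4 ± 2.68 CPM per kilobase, 10.3-fold below Slc2a3. At the low end Hk2, Slc2a1 and Khk, at 4.56 ± 1.21, 4.00 ± 1.10 and 2.98 ± 1.99 CPM per kilobase, overlapped and were not ordered beyond their spread. Within genotypes, Slc2a1 was below Khk in KO, at 2.81 and 3.31 against 5.45 and 3.74 CPM per kilobase, and above it in WT, at 4.92 and 4.94 against 1.32 and 1.40 CPM per kilobase, with Khk on about 5 reads or fewer in every library.

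Per kilobase, Slc2a3 made up 91.9% and 89.2% of the summed level of the 3 transporters in KO samples and 88.0% and 90.0% in WT samples. Hk1 made up 98.6% and 99.0% of both hexokinases in KO samples and 98.7% and 99.2% in WT samples. The ratio of Sord to Hk1 was 2.08 and 2.74 in KO samples, against 1.56 and 1.46 in WT samples, and the ratio of Sord to Slc2a3 was 3.02 and 4.18 in KO, against 2.62 and 2.50 in WT. Both ratios were higher in both KO samples than in either WT sample. They are made from the values that chose Sord and are no separate support for its difference. Sord alone made up 53.9% and 60.9% of the summed level of the 7 genes per kilobase in KO, against 47.9% and 46.8% in WT.

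**Figure D3:**
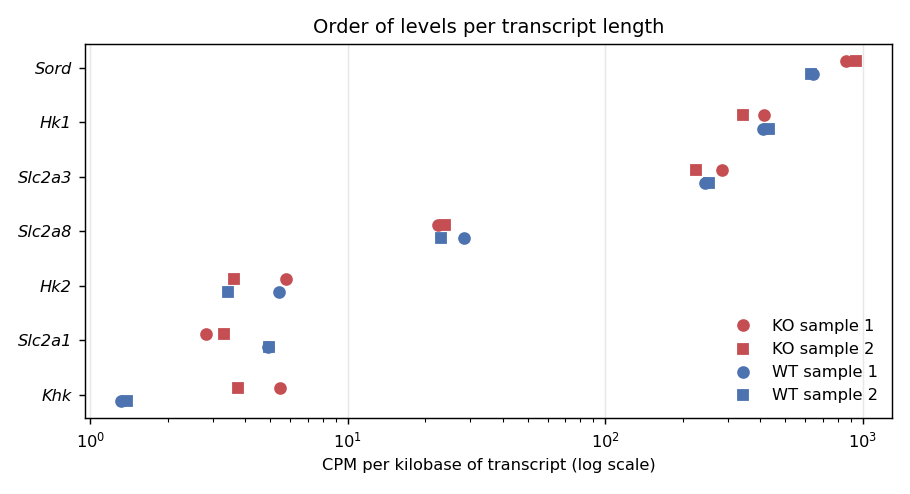
CPM per kilobase of transcript (horizontal axis, log scale) for each gene, with KO samples drawn above WT samples. Sord, Hk1 and Slc2a3 lie above 225 CPM per kilobase in every library, while Hk2, Slc2a1 and Khk lie at or below 5.78.

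The other genes of sugar handling showed 0 calls. Of 77 genes in 6 lists, 66 were tested, and 0 passed limma with Benjamini-Hochberg adjustment over all genes, where 0.00564% of all tested genes did. With so few samples, 0 calls cannot show that these genes were unchanged. The spermatogonial marker Sall4, named after its values were seen, averaged 6.9e-07 CPM in KO, far less than 1 read. In WT samples it was at 12.1 and 7.15 CPM (mean 9.62 CPM). Finding 0 reads sets a limit of only 4.01 and 5.02 CPM in KO samples 1 and 2. Sall4 did not pass either (limma adjusted p 0.942). Of the 9 tested spermatogonial markers, 6 had a positive and 3 a negative log2 fold change. At an unadjusted p under 0.05 there were 2 of the 66, beside 4.69% of all tested genes (Hkdc1 and Ugp2, named after their values were seen). In 9 of the 66 both KO samples were above both WT samples and in 12 below, 31.8% in all, beside 34.4% of all tested genes. The median log2 fold change of the 66 was -0.08. Without KO sample 1, when the spread came from the WT samples alone, 3 genes of the 66 passed (Aldoc and Txnip lower and Ugp2 higher in KO), where 7.04% of all tested genes did. Ugp2, which makes UDP-glucose, was at 28.1 and 41.3 CPM in KO samples, against 21.0 and 18.3 CPM in WT samples.

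Of the other hexose transporters, 10 of 17 were tested and 0 passed (median log2 fold change -0.23). The fructose transporter gene Slc2a5 (GLUT5) led the list, at 715 and 554 CPM in KO samples, against 676 and 707 CPM in WT samples. These values overlapped, and per kilobase Slc2a5 reached 214 ± 24.1 CPM (SD, n = 4), near the level of Slc2a3. Slc2a5 lies on chromosome 4 from 150203801 to 150228626, with its start 5.74 Mb from that of Tas1r3. Slc45a4, a transporter gene of the SLC45 family, was at 52.6 and 60.2 CPM in KO and at 75.7 and 70.9 CPM in WT, without overlap. Slc5a3, a myo-inositol transporter gene, was at 8.72 and 6.72 CPM in KO and at 7.61 and 12.6 CPM in WT.

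In polyol and fructose metabolism, 10 of 13 genes were tested and 0 passed (median -0.12). Aldose reductase, which makes the sorbitol that Sord uses, is encoded by Akr1b3, named here for that role. It was at 43.7 and 32.2 CPM in KO samples, against 40.0 and 29.2 CPM in WT samples, so the genotypes overlapped. Per kilobase it stood at 25.9 ± 4.82 CPM (SD, n = 4), far below Sord. Aldoa, an aldolase gene, was at 390.0 and 432 CPM in KO and at 454 and 453 CPM in WT, without overlap. Tkfc, which phosphorylates the glyceraldehyde made from fructose, was at 204 and 175 CPM in KO and at 204 and 210 CPM in WT. Akr1a1, an aldehyde reductase gene, was at 80.1 and 60.2 CPM in KO and at 76.9 and 74.1 CPM in WT.

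Genes that use the phosphorylated sugars were also without a call: of 19 tested, 0 passed (median -0.05). Gpi1, which converts glucose 6-phosphate to fructose 6-phosphate, was at 481 and 479.8 CPM in KO and at 487 and 549 CPM in WT. Fbp1, a fructose bisphosphatase gene, was at 510.3 and 523 CPM in KO and at 558 and 511 CPM in WT. Mpi, the mannose phosphate isomerase gene, was at 239 and 189 CPM in KO and at 222 and 231 CPM in WT. Of the other hexose kinases 6 of 7 were tested and 0 passed (median -0.21). The galactokinase gene Galk1 was at 26.0 and 27.7 CPM in KO, against 31.1 and 31.7 CPM in WT. Galk2 was at 20.03 and 10.7 CPM in KO and at 19.7 and 15.0 CPM in WT, and the ADP-dependent glucokinase gene Adpgk at 8.01 and 15.0 CPM in KO and at 13.2 and 11.8 CPM in WT.

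Lactate genes were the only one of the 6 lists with a median above 0 (0.05), with 8 positive and 2 negative log2 fold changes among 10 tested and 0 calls. Ldhc, the germ cell lactate dehydrogenase gene, was at 3509 and 3733 CPM in KO samples and at 3750 and 3543 CPM in WT samples. Ldha was at 891 and 1023 CPM in KO and at 959 and 929 CPM in WT, and Ldhal6b at 752 and 901 CPM in KO and at 763 and 803 CPM in WT. Among 11 tested regulators of glucose uptake 0 passed (median -0.14). Txnip, which limits glucose uptake by promoting removal of transporters from the cell surface, was at 53.8 and 39.5 CPM in KO, against 72.3 and 56.4 CPM in WT, without overlap. Aspscr1, which retains transporter vesicles inside the cell, was at 294 and 263 CPM in KO and at 278 CPM in both WT samples. Tbc1d1, a regulator of transporter vesicle traffic, was at 145 and 120.4 CPM in KO and at 146 and 143 CPM in WT.

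**Figure D4:**
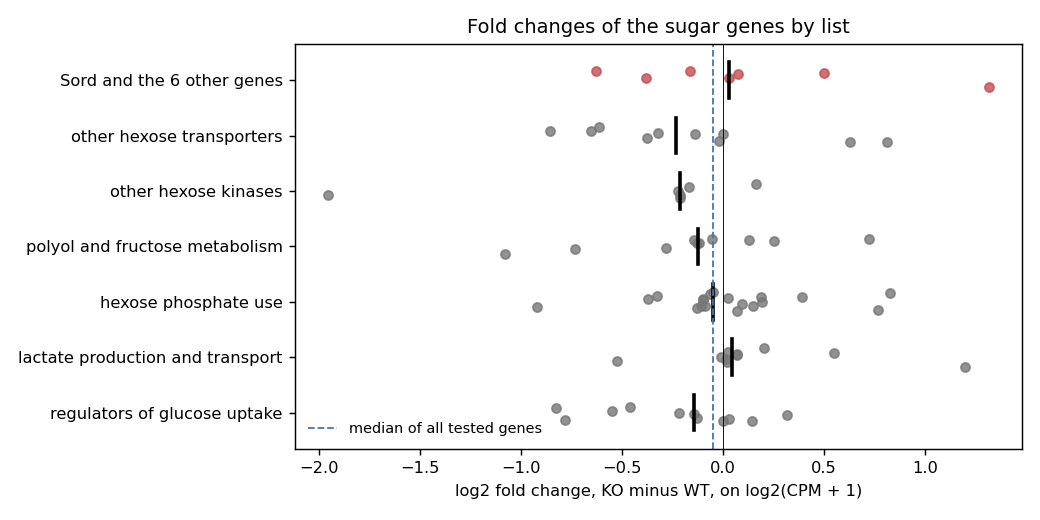
Log2 fold change (KO minus WT, on log2(CPM + 1), horizontal axis) of each tested gene by list, with Sord and the 6 other genes in red, a bar at each median and a dashed line at the median of all tested genes (-0.05). The medians of the 6 lists lie between -0.23 and 0.05.

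Of the remaining marker lists, 7 markers of peritubular myoid and smooth muscle cells summed to 136 and 116 CPM in KO and to 156 and 163 CPM in WT, all with a negative log2 fold change. Leydig cell markers (9) summed to 1681 and 1712 CPM in KO and to 1832 and 1929.5 CPM in WT. Of these, 4 had a positive and 5 a negative log2 fold change. Insl3 alone was at 1234 and 1278 CPM in KO and at 1517 and 1464 CPM in WT, so it made up most of these sums. It was the 1 Leydig cell marker with both KO samples below both WT samples, and in 1 other both were above. Spermatogonial markers (9 listed of 10) summed to 179 and 189 CPM in KO and to 170 and 149 CPM in WT, round spermatid markers (10) to 1808 and 1959 CPM in KO and to 1847 and 1825 CPM in WT, and macrophage markers (7 listed of 8) to 47.4 and 69.7 CPM in KO and to 52.6 and 60.8 CPM in WT. In limma 0 markers of any list passed, and their part in the levels of the 7 genes was not tested.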

How the data were processed

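Testis RNA of 4 samples, 2 KO and 2 WT by the titles, was measured. Per the labels' protocols, libraries came from total RNA. STAR, Partek and mm39 are named in the submitters' processing notes, without versions or settings. The authors deposited CPM for each RefSeq transcript, with a sum of 1000000 per library. The step between low values does not depend on transcript length. The table of the series and 4 sample tables were identical. Transcript lengths are those of the deposited table.

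Rows were summed per symbol. Reads are rounded estimates, CPM divided by the step: only 48.1% and 47.4% (KO) and 22.9% and 26.6% (WT) of genes came out whole within 0.02 reads, so no count test was used. Intervals are exact (Clopper-Pearson, 95%) and, like the floor of 3 reads, cover counting error only. Those of depth-scaled ratios pool the reads of each genotype and are no test of genotype. Genes reaching 1 CPM in 2 or more libraries entered limma 3.58.1 (R 4.3.3), fitted to log2(CPM + 1) by genotype with a mean trend. Adjustment followed Benjamini-Hochberg at 0.05. With 2 against 2 samples a permutation test cannot give a two-sided p below 0.333. The fit was tested on simulated data. Alternatives covered rescaling by trimmed means, quantile normalization, pseudocounts, filters, no mean trend, depth weights, a replicate block and each sample left out. Promoter windows are RefSeq sequence of GRCm38.p6 and were matched by symbol; positions of genes are those of the deposited table (mm39).

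The 7 genes and all lists were chosen with earlier results of these data known. Named are the 7 genes, Tas1r3, up to 3 tested genes of each pathway list with the highest mean CPM, and the 3 genes nearest to Sord. Marker lists, which the rule also covers, are given as sums, with Insl3, Sall4, Pecam1 and Slc4a1 also named. Outside the rule, Tcp1, Rn18s, Hkdc1, Ugp2 and Aldoc are named for their values and Akr1b3 for its role. Python 3.11.15, pandas 2.3.3, numpy 2.4.6, scipy 1.17.1 and matplotlib 3.10.9 were used.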

Additional observations from a re-analysis of the deposited data

How the results depend on the processing

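Over all genes, limma called 1 gene, and 0 with a pseudocount of 0.1 CPM or without a mean trend, 2 with depth weights and 23 with the replicate number as a block. Same-numbered samples did not deviate together (correlation -0.005 across 17744 genes). With 2 samples per genotype, this cannot show whether they share more than a number. Leaving out 1 sample gave 0 to 1249 genes; the cause was not tested, but without a KO sample the spread came from WT alone. Of the 66 pathway genes 0 were called in each alternative except without KO sample 1 (0 to 3 when 1 sample was left out). Log2 fold changes of Sord, Slc2a1, Slc2a8 and Hk1 kept their sign in all 13 alternatives and that of Khk in all 12 that tested it (5 CPM filter: not tested). Those of Slc2a3 and Hk2, whose samples overlapped, changed sign in 1 and 2 alternatives. For Sord, Khk, Slc2a1 and Slc2a8, whose genotypes did not overlap in CPM, leaving out 1 sample could not change the sign. For any gene, changed filters, the fit without a mean trend and the replicate block leave the log2 fold change as it was. A filter on transcripts (1 CPM in 2 or more libraries) removed no transcript of Hk1 or Slc2a8, so it could not move their shares. Per kilobase of its longest transcript Slc2a8 stood at 21.3 CPM. Depth limits Khk and Slc2a1 most, at about 5 reads or fewer per KO library.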
